A study of Mus musculus with 37 samples.

Results

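Mouse splenocytes that had been cultured with washed RAW cells were compared with splenocytes cultured with the same cells unwashed, after the RAW cells had been kept in normoxia. RAW264.7 is an established mouse macrophage-like line. All titles marked for washed or for unwashed RAW cells after normoxia were taken, which gave 12 of the 37 libraries of the series, 6 washed and 6 unwashed. The splenocytes came from wild-type FVB mice. RAW cells had 72 h at 21% oxygen, with or without recombinant SPP1, and then shared a culture with the splenocytes for 48 h, with Brefeldin A added at the end. The 4 groups, each of 3 libraries, were unwashed without SPP1, unwashed with SPP1, washed without SPP1 and washed with SPP1. The washed RAW cells received a media wash before the co-culture, and the unwashed ones did not. Effects below are averages over both SPP1 levels with equal weight unless an SPP1 level is named. Libraries with RAW cells kept at 1% oxygen, 6 washed and 6 unwashed, served for 1 comparison.

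Macrophages act on lymphocytes both by contact and through what they secrete. A wash replaces the medium, with its cytokines, metabolites and any added protein, and leaves the attached cells. SPP1, also called osteopontin, is secreted by macrophages in many inflamed and tumour tissues and binds CD44 and integrins on other cells. Brefeldin A blocks transport of proteins out of the endoplasmic reticulum and is used to retain cytokines in cells. Per the labels the splenocytes were collected for RNA after the co-culture. How they were parted from the RAW cells is not given in the sources used here, and whether RNA of RAW cells was carried along was not tested. In such bulk RNA, fewer cells of a type and less RNA per cell cannot be told apart.

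The values are counts of 3′ RNA reads, deposited per human Ensembl gene ID because the mouse reads had been aligned to the human genome GRCh38. An ID therefore collects the mouse reads that aligned to a human gene model, near-identical copies included, and which mouse gene gave them is uncertain. The files pair no ID with a symbol, and for this reason no gene name, gene role, position or cell type marker is given. At most 2 IDs per direction are named in a comparison. The labelled cell types could not be checked against their markers.

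Total counts of the 12 libraries ran from 691539 to 1328808. The mean was 1027450 ± 184329 (SD, n = 6) in the washed and 1213070 ± 115360 (SD, n = 6) in the unwashed libraries, with an exact two-sided permutation p of 0.0519 and 0.104 after adjustment over 3 library measures. IDs with a count numbered 8858 ± 449.7 and 9342 ± 375.8 (SD, n = 6 each, exact permutation p = 0.0693, adjusted 0.104), and the share of counts in the 10 most abundant IDs was 20.6% ± 1.56 and 19.8% ± 0.838 (SD, n = 6 each, exact permutation p = 0.268, adjusted 0.268). The smallest p that 6 against 6 allows is 0.00216. At these totals 3 counts correspond to 2.22 to 4.97 CPM (counts scaled to a common library size), which covers counting error only.

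Washed SPP1 replicates 1 and 2 stood apart from the other 10 libraries. They had 691539 and 962194 counts, the lowest totals of the 12, and the lowest positions among the 12 on the second principal component of all 37 libraries (−53.3 and −31.8, against 5.62 to 21.0 in the others). Correlations of log2 CPM between replicates were 0.869 to 0.926 in the washed SPP1 group and 0.958 to 0.975 in the other 3 groups. The median SD per ID between replicates was 0.63 on the log2 scale in that group, against 0.28 to 0.32 in the others. Each pair of replicates differed by more than sampling noise (chi-square of at least 2.88 per degree of freedom). Results that rest on these libraries are given with and without them. In hypoxia 2 libraries lay as low on this component (−54.4 and −32.3), washed hypoxia SPP1 replicate 1 and unwashed hypoxia replicate 2 without SPP1, so that such a position also occurred in an unwashed library. The sources state a minimum RNA integrity and also an integrity range that starts below that minimum. Values per library were not used here, and the part of RNA quality in these positions was not tested.

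Across the 12 libraries, 67 of 5193 tested IDs (1.29%) passed an adjusted p under 0.05 in edgeR's quasi-likelihood test and are referred to as called. Of these, 44 were higher and 23 lower in the washed arm. At an unadjusted p under 0.05 there were 520 higher and 449 lower. Fitted to these 12 libraries alone, without the other 25, edgeR called 363 of 3886 IDs (9.34%). The median fold change of the called IDs was 1.38 on the log2 scale for the higher and −1.38 for the lower ones, beside 0.03 over all IDs tested. With IDs of at most 3 counts in every library of an arm set to 3 counts (1 of the higher and 4 of the lower IDs), the medians were 1.38 and −1.05. Of the called IDs, 41 of the higher and 19 of the lower had a mean of at least 4 on the log2 CPM scale. Among these the fold changes ran from 0.61 to 2.76 for the higher and from −0.59 to −1.87 for the lower ones.

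The 2 arms did not overlap in 54 of the 67 called IDs, 32 higher and 22 lower. Over all 5193 IDs the 6 washed libraries lay above all 6 unwashed ones in 1.87% and below them in 2.85%. As the test uses the same libraries, this is a description of the called IDs and no further support for them.

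Upward, the largest fold change among called IDs with a mean of at least 4 on the log2 CPM scale was that of ENSG00000080824. In the unwashed libraries its level was 2261, 2251 and 2275 CPM without SPP1 and 2264, 2218 and 2194 CPM with SPP1. In the washed libraries it was 8989, 6009.8 and 8565 CPM without SPP1 and 53821, 29101 and 5689 CPM with SPP1. The lowest washed library was thus above the highest unwashed one, and the 2 highest values belonged to the 2 libraries that stood apart. After hypoxia, 1 unwashed library also had a high level, replicate 2 without SPP1 with 28033 CPM, and the other 5 unwashed ones had 1829 to 2521 CPM. The washed hypoxia libraries ranged from 2313 to 43845 CPM (median 5083), so the arms overlapped there. After normoxia the fitted log2 fold change was 2.76 ± 0.55 (SE, adjusted p = 0.00786), 6.79-fold. Without the 2 normoxia libraries it was 1.59 (adjusted p = 0.348). It was also 1.59 without all 4 libraries lowest on the second principal component, and the call then held (adjusted p = 0.00263).

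ENSG00000126814 had the smallest p among the IDs that were higher without overlap. Its level was 60.0, 48.0 and 39.1 CPM in the unwashed libraries without SPP1 and 37.8, 37.7 and 38.5 CPM in those with SPP1. The washed libraries had 83.9, 96.7 and 104.6 CPM without SPP1 and 142.5, 178.1 and 104.4 CPM with SPP1. All 6 washed libraries were above all 6 unwashed ones, with 81 to 154 counts against 45 to 63. The fitted log2 fold change was 1.42 ± 0.24 (SE, adjusted p = 0.0037), 2.68-fold. It was 1.22 both without the 2 libraries (adjusted p = 0.115) and without the 4 (adjusted p = 0.0222).

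Downward, at the same minimum level, the largest fold change was that of ENSG00000114315. The unwashed libraries had 427.6, 364.9 and 444.6 CPM without SPP1 and 392.6, 468.8 and 473.3 CPM with SPP1. The washed ones had 153.3, 179.5 and 138.8 CPM without SPP1 and 11.6, 20.8 and 220.7 CPM with SPP1. Here too the arms did not overlap, and the lowest values, from 7 and 18 counts, were those of the 2 libraries that stood apart. The fitted log2 fold change was −1.87 ± 0.46 (SE, adjusted p = 0.0314), and −1.19 both without these 2 (adjusted p = 0.468) and without the 4 (adjusted p = 0.0758). This call was lost in 11 of the 12 fits that left out 1 library. In the fit without washed SPP1 replicate 3 the value was −3.02.

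ENSG00000168386 had the smallest p among the IDs that were lower without overlap. It stood at 381.0, 347.9 and 503.3 CPM in the unwashed libraries without SPP1 and at 459.8, 409.3 and 497.0 CPM in those with SPP1. In the washed libraries it stood at 148.2, 127.4 and 158.5 CPM without SPP1 and at 127.6, 276.4 and 168.0 CPM with SPP1. For this ID the 2 libraries that stood apart were not farther from the unwashed arm than the rest: replicate 1 was close to the washed libraries without SPP1 and replicate 2 was the highest of the washed arm. The fitted log2 fold change was −1.38 ± 0.27 (SE, adjusted p = 0.00786), a level 2.60-fold lower. It was −1.46 both without the 2 libraries (adjusted p = 0.115) and without the 4 (adjusted p = 0.00899).

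**Figure D1:**
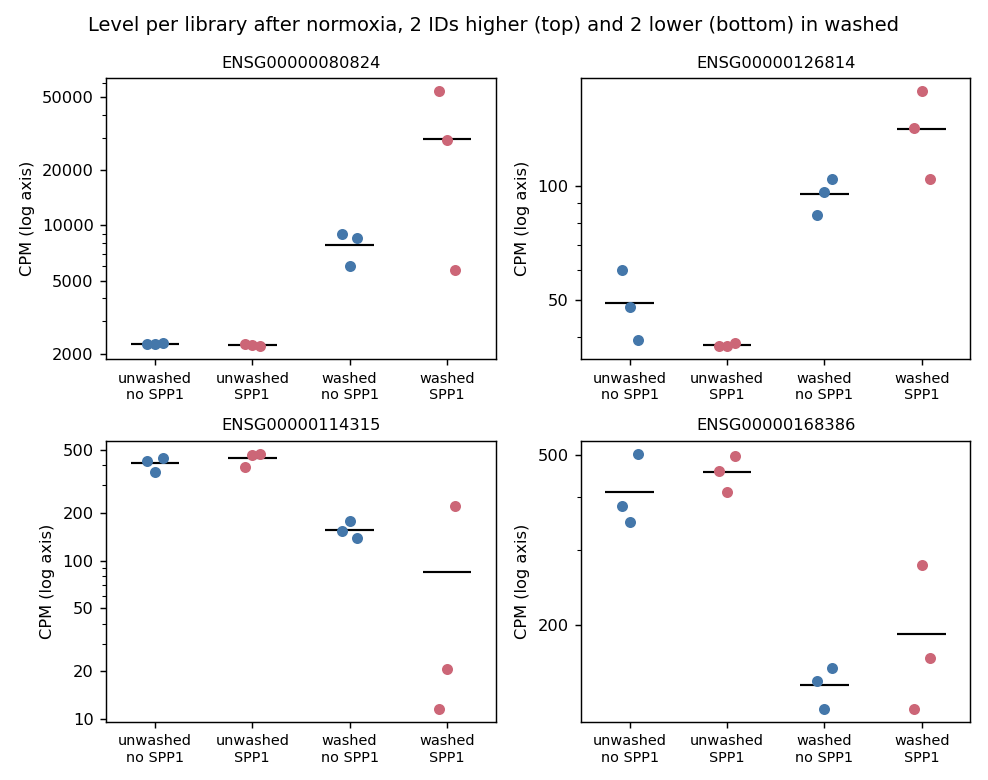
Level of 4 called IDs in each of the 12 normoxia libraries, in CPM on a log axis. Points are libraries (blue without SPP1, red with SPP1) and lines are group means of 3 libraries. For ENSG00000080824 the unwashed libraries lie between 2194 and 2275 CPM and the washed ones between 5689 and 53821 CPM, and in each of the 4 panels the washed and unwashed points do not overlap.

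The same IDs had other levels in splenocytes that received only the medium of normoxic RAW cells (5 libraries) or neither cells nor medium (naive, 2 libraries). ENSG00000080824 ranged from 4442 to 8074 CPM with medium and was at 1407 and 4637 CPM in the naive libraries. ENSG00000126814 ranged from 145.1 to 424.0 CPM with medium, above 5 of the 6 washed libraries, and was at 147.2 and 233.3 CPM in the naive ones. ENSG00000114315 was low in both, with 16.7 to 67.0 CPM and 10.4 and 18.5 CPM. ENSG00000168386 lay at 177.9 to 324.1 CPM with medium and at 131.6 and 210.8 CPM in the naive libraries, which overlapped the washed arm. These levels are given side by side and were not tested.

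The called IDs were chosen for a difference between these 12 libraries, so a shift between the arms is built in, and the values here describe only its size in each library. The median log2 CPM difference of the 44 higher IDs from the unwashed mean was 0.87, 0.86 and 0.96 in the washed libraries without SPP1 and 1.74, 1.80 and 1.04 in those with SPP1. For the 23 lower IDs it was −0.97, −0.88 and −1.26 without and −1.999, −1.58 and −1.05 with SPP1. The 6 unwashed libraries stayed between −0.04 and 0.07 for the higher and between −0.11 and 0.10 for the lower IDs, and the median over all IDs tested ran from −0.09 to 0.03 in the 12 libraries. The shift was about as large in washed SPP1 replicate 3 as in the washed libraries without SPP1, and larger in the 2 libraries that stood apart.

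**Figure D2:**
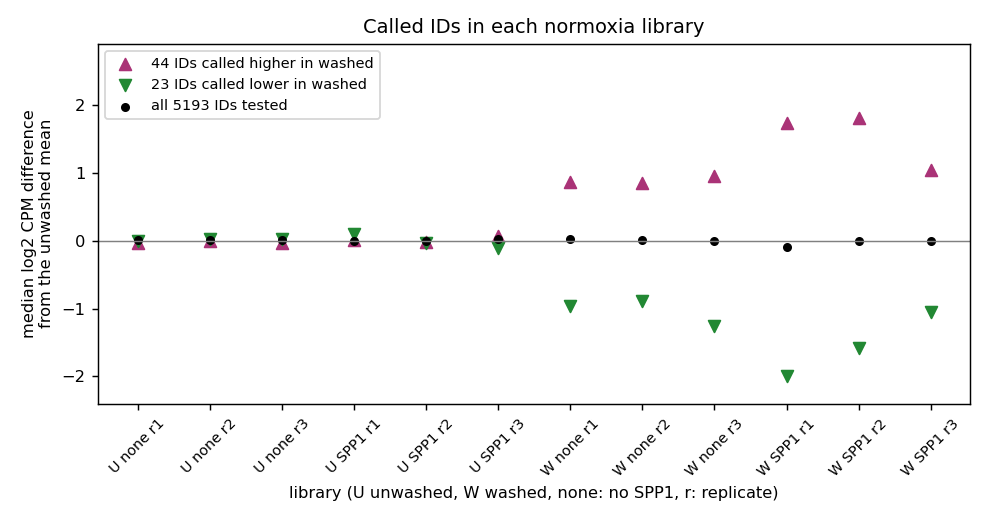
Median log2 CPM difference from the mean of the 6 unwashed libraries, for each of the 12 normoxia libraries. Upward triangles are the 44 IDs called higher in washed, downward triangles the 23 called lower and dots all 5193 IDs tested. All 6 washed libraries lie at 0.86 or more for the higher IDs and at −0.88 or less for the lower ones, with washed SPP1 replicates 1 and 2 farthest out among the higher IDs at 1.74 and 1.80.

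The 4 washed libraries other than those 2 lay above all 6 unwashed libraries in 32 of the 44 higher IDs (72.7%) and below them in 22 of the 23 lower IDs (95.7%), against 3.76% and 3.87% of all IDs tested. These libraries also served to call the IDs, so the contrast with all IDs is a description and no support. In 21 of the 44 higher and 10 of the 23 lower IDs the 2 libraries that stood apart were more than 1 on the log2 scale farther from the unwashed mean than the other 4 were. In 14 and 7 IDs, respectively, both sets of washed libraries agreed to within 0.5. Over all 5193 IDs the 2 libraries lay more than 1 farther upward in 661 and downward in 756, and both sets agreed to within 0.5 in 2216. The 44 higher IDs together took 1.92% to 2.20% of the counts of an unwashed library and 3.23% to 10.8% of a washed one, with 10.8% and 7.63% in washed SPP1 replicates 1 and 2. The 23 lower IDs took 0.705% to 0.773% and 0.209% to 0.412%.

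When both of these libraries were left out, 0 IDs were called in edgeR's test and 495 of 5969 had an unadjusted p under 0.05. The 67 IDs, which the remaining 10 libraries had helped to choose, all kept their direction in that fit, against 75.9% of all IDs. Of them 56 had an unadjusted p under 0.05, against 8.29% of all IDs, and the medians were 1.03 for the higher and −1.14 for the lower IDs. When the 2 hypoxia libraries with low positions were left out as well, 26 IDs were called, 19 higher and 7 lower, and 23 of them were among the 67. With only the 2 normoxia libraries left out and the SPP1 levels merged, so that 4 washed libraries stood against 6 unwashed ones, 1 ID was called. It was ENSG00000168386, with a log2 fold change of −1.51.

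The number of called IDs depended on single libraries of both arms. Leaving out 1 library at a time gave 26, 33 and 31 called IDs for unwashed replicates 1, 2 and 3 without SPP1, and 30, 26 and 34 for those with SPP1. It gave 37, 49 and 33 for the washed replicates without SPP1 and 24 and 35 for washed SPP1 replicates 1 and 2. Without washed SPP1 replicate 3 the count was 541, with 298 higher and 243 lower, and all 67 IDs were among them. That fit leaves the washed SPP1 group with only the 2 libraries that stood apart.

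**Figure D3:**
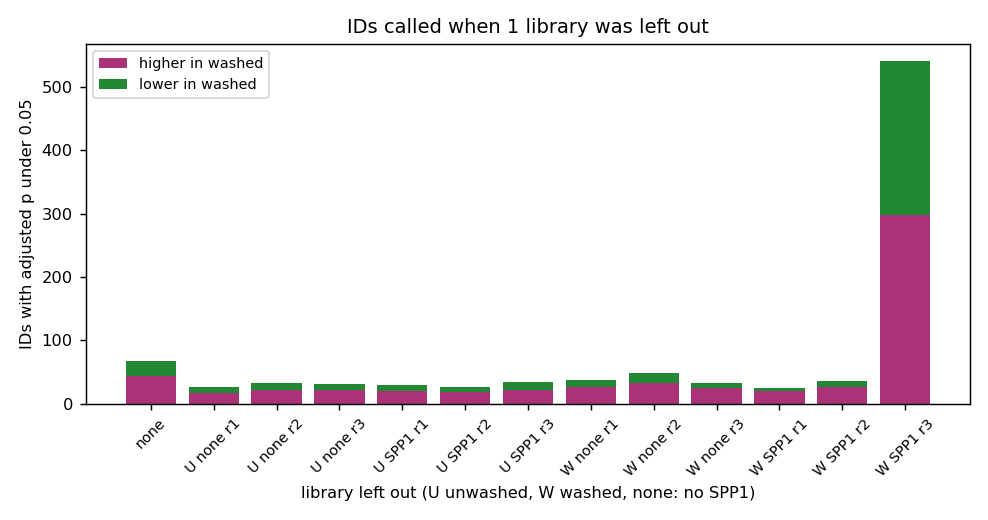
Number of IDs with an adjusted p under 0.05 between the washed and the unwashed arm when the named library was left out, split into IDs higher and lower in washed. The first bar is the fit with all libraries (67), and the bars run from 24 without washed SPP1 replicate 1 to 541 without washed SPP1 replicate 3.

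At each SPP1 level alone the wash comparison set 3 libraries against 3. Without SPP1, 0 of 5193 IDs were called in edgeR's test, with 115 higher and 109 lower at an unadjusted p under 0.05 (4.31%), and DESeq2 called 0. In this fit all groups share an estimate of the spread, the washed SPP1 group included. Fitted to the 6 libraries without SPP1 alone, edgeR called 116 of 3408 IDs (3.40%), 63 higher and 53 lower. The called IDs included ENSG00000080824 (log2 fold change 1.80 ± 0.14, SE, adjusted p = 4.8e-07) and ENSG00000126814 (0.96 ± 0.21, adjusted p = 0.015) among the higher ones. ENSG00000114315 (−1.39 ± 0.15, adjusted p = 2.71e-05) and ENSG00000168386 (−1.51 ± 0.17, adjusted p = 3.01e-05) were among the lower ones. Of the 116 IDs, 43 (37.1%) were also among the 67, of which they made up 64.2%. These 6 libraries are part of the 12 that called the 67 and from which the named IDs were picked. The overlap and the adjusted p of the named IDs are thus partly built in and no further support.

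The libraries with SPP1 had no part in choosing these 116 IDs. In them 113 of the 116 differed in the same direction between washed and unwashed, 61 of the 63 higher and 52 of the 53 lower, against 64.1% of all IDs. An unadjusted p under 0.05 in that direction was reached by 81, beside 19.6% of all IDs in either direction. Of the 116, 16 were called, beside 1.25% of all IDs. These p-values came from the fit to all groups, so the estimate of the spread included the 6 libraries that chose the 116. The shares of all IDs are over the 5193 of that fit, not the 3408 among which the 116 were called. The median was 0.94 for the higher and −1.07 for the lower IDs, beside 0.02 over all IDs, and was 0.79 and −0.90 in the libraries used to choose them. Washed SPP1 replicate 3, which did not stand apart, also differed from the mean of the unwashed SPP1 libraries in the same direction in 113 of the 116, with medians of 0.91 and −0.74. Replicates 1 and 2 did so in 105 and 97. Over all IDs the share in the same direction was 61.5%, 58.4% and 63.2% for replicates 1, 2 and 3.

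With SPP1, 65 of 5193 IDs were called (1.25%), 54 higher and 11 lower. Of these 34 were also among the 67 (52.3% of the 65 and 50.7% of the 67). The 6 libraries with SPP1 also served to call the 67, so this overlap is partly built in. The smallest p upward were those of ENSG00000126814 (log2 fold change 1.89 ± 0.35, SE, adjusted p = 0.014) and ENSG00000112159 (2.19 ± 0.41, adjusted p = 0.014). The latter was at 55.5, 41.1 and 68.9 CPM in the unwashed SPP1 libraries and at 304.8, 359.6 and 97.2 CPM in the washed ones, so that replicate 3 was nearer to the unwashed arm than replicates 1 and 2. Downward, ENSG00000109083 fell from 808.4, 703.7 and 697.7 CPM in the unwashed to 109.3, 218.6 and 308.8 CPM in the washed SPP1 libraries (log2 fold change −1.78 ± 0.41, adjusted p = 0.0272). ENSG00000172500 had 11, 9 and 17 counts in the unwashed SPP1 libraries and 0, 0 and 1 in the washed ones (adjusted p = 0.0238). The ratio of their summed counts, scaled by library size, was 24.8 with a 95% counting interval of 4.18 to 1004. Without washed SPP1 replicates 1 and 2 only replicate 3 was left in that group. The log2 fold changes were then 1.48 for ENSG00000126814, 0.84 for ENSG00000112159, −1.23 for ENSG00000109083 and −3.22 for ENSG00000172500 (−4.28 in the full fit). Fitted to the 6 libraries with SPP1 alone, edgeR called 0 of 3681 IDs. In that fit the adjusted p was 0.0633 for ENSG00000126814, 0.125 for ENSG00000112159 and 0.109 for ENSG00000109083.

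The calls with SPP1 depended on single libraries of both arms. Leaving out any of 5 of the 6 libraries of this comparison gave 0 called IDs, with 571 to 839 at an unadjusted p under 0.05, and leaving out washed SPP1 replicate 3 gave 790. Without replicates 1 and 2 together, 0 were called and 230 had an unadjusted p under 0.05. The 65 IDs were seen in the same direction in the libraries without SPP1 in 53 cases, 43 of 54 higher and 10 of 11 lower, against 64.1% of all IDs. Of the 65, 15 did so with an unadjusted p under 0.05, beside 4.31% of all IDs in either direction. The medians were 2.00 and −1.73 with SPP1 and 0.39 and −0.72 without it.

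The difference between these 2 wash effects was tested directly. For it 0 IDs were called in edgeR's and in DESeq2's test, with 224 and 265 at an unadjusted p under 0.05. The 67 called IDs, which were chosen on the average of both SPP1 levels, all had the same direction at each level as in that average, against 78.0% of all IDs without and 86.1% with SPP1. The fitted effect was larger with SPP1 in 34 of the 44 higher and 20 of the 23 lower IDs. The share of all IDs with a larger effect with SPP1 was not computed. The medians of the called IDs were 1.46 and −1.66 with SPP1 and 0.94 and −1.04 without it. For ENSG00000080824 the difference was 1.93 ± 1.04 on the log2 scale (SE, adjusted p = 0.973), for ENSG00000126814 0.93 ± 0.48 (adjusted p = 0.973), for ENSG00000114315 −0.96 ± 0.90 (adjusted p = 0.973) and for ENSG00000168386 0.25 ± 0.53 (adjusted p = 0.998). A difference between the SPP1 levels was not detectable with these libraries. The effects with SPP1 include the 2 libraries that stood apart. Among the 44 higher IDs their median shifts from the unwashed mean were 1.74 and 1.80. Washed SPP1 replicate 3 had 1.04, and the washed libraries without SPP1 had 0.86 to 0.96. For the 23 lower IDs the values were, in the same order, −1.999, −1.58, −1.05 and −0.88 to −1.26.

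**Figure D4:**
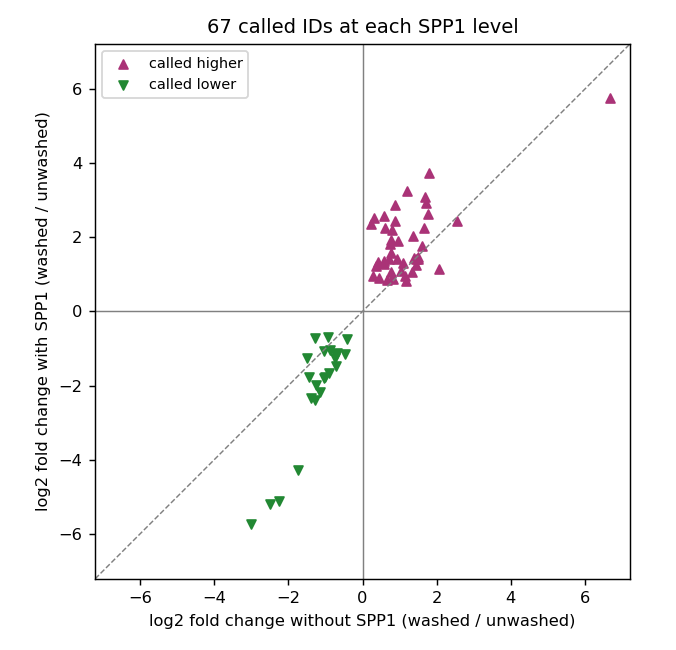
Log2 fold change of washed over unwashed for the 67 called IDs, without SPP1 on the horizontal and with SPP1 on the vertical axis. Upward triangles are the 44 called higher, downward triangles the 23 called lower, and the dashed line marks equal effects. All 67 lie in the upper right or the lower left part, and 34 of 44 and 20 of 23 are farther from 0 with SPP1.

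The hypoxia libraries were not part of the normoxia contrast, although they entered the shared fit and so its filter and its estimate of the spread. After hypoxia the wash effect of the 67 IDs had the same direction in 63, 41 of 44 higher and 22 of 23 lower, against 63.2% of all IDs. In 28 of them the unadjusted p was under 0.05 in that direction, beside 13.9% of all IDs in either direction, and 3 were called, beside 1.62% of all IDs. The medians after hypoxia were 0.56 and −0.48, smaller than the 1.38 and −1.38 after normoxia, for which the IDs had been chosen. Leaving out the 4 libraries lowest on the second principal component, 2 of them from hypoxia, gave 62 in the same direction and medians of 0.61 and −0.46. ENSG00000126814 had a log2 fold change of 0.83 ± 0.24 after hypoxia (SE, adjusted p = 0.0722) and ENSG00000168386 one of −0.72 ± 0.27 (adjusted p = 0.184). In the same edgeR test ENSG00000080824 had 1.10 ± 0.52 (adjusted p = 0.3356) and ENSG00000114315 had −0.85 ± 0.45 (adjusted p = 0.4065).

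The wash effect differed between normoxia and hypoxia for 9 of 5193 IDs (0.173%), all of them with a more positive value after normoxia. The 9 were lower in the washed than in the unwashed arm after hypoxia (log2 fold changes −1.65 to −4.50, each called there). After normoxia their arms overlapped and none was called, with log2 fold changes from 0.07 to 1.76. In 8 of the 9 all 6 unwashed hypoxia libraries lay above the other 18 libraries of RAW cells. The same libraries served to choose the 9, so this separation and the calls after hypoxia are a description and no support. The share of all IDs with such a separation was not computed.

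ENSG00000197956 had the smallest p of these. It ranged from 18.0 to 37.0 CPM in the unwashed normoxia libraries (median 22.9) and from 23.8 to 48.4 CPM in the washed ones (median 25.4). After hypoxia it ranged from 297.3 to 597.6 CPM in the unwashed libraries (median 482.9) and from 13.5 to 57.8 CPM in the washed ones (median 24.0). Of these 24 libraries only the unwashed hypoxia ones were high, at both SPP1 levels. Outside the 24, this ID was also high with the medium of normoxic RAW cells alone, at 327.9 to 1146 CPM. The naive libraries had 26.4 and 126.3 CPM, and these levels were not tested. The wash effect was 0.32 ± 0.46 after normoxia and −4.03 ± 0.45 after hypoxia on the log2 scale, a difference of 4.35 ± 0.64 (SE, adjusted p = 0.000273). It was past the threshold without any 1 of the 24 libraries. For the second, ENSG00000168214, the unwashed normoxia libraries ranged from 118.0 to 195.7 CPM (median 170.4) and the washed ones from 166.5 to 379.3 CPM (median 207.2). The unwashed hypoxia libraries ranged from 294.9 to 771.6 CPM (median 484.9) and the washed ones from 122.4 to 215.7 CPM (median 135.5). With the medium of normoxic RAW cells alone this ID ranged from 323.7 to 874.7 CPM, and the naive libraries had 78.1 and 219.6 CPM (not tested). The highest washed normoxia values, 337.9 and 379.3 CPM, were those of the 2 libraries that stood apart. The difference of the wash effects was 2.19 ± 0.40 (SE, adjusted p = 0.0068), and 1.89 (adjusted p = 0.0556) without these 2 libraries.

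**Figure D5:**
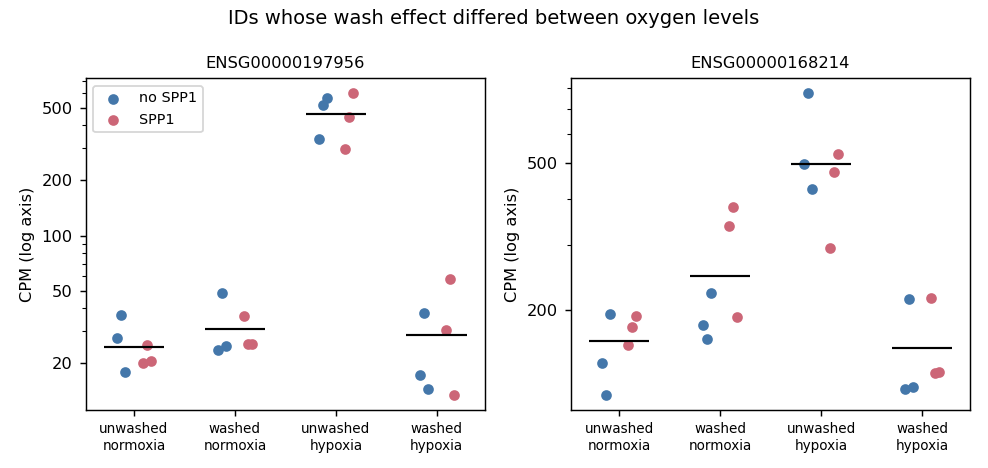
Level of 2 IDs in the 24 libraries of washed and unwashed RAW cells, in CPM on a log axis, by wash and oxygen. Points are libraries (blue without SPP1, red with SPP1) and lines are means of 6 libraries. ENSG00000197956 lies at 297.3 to 597.6 CPM in the unwashed hypoxia libraries and at 57.8 CPM or less in the other 18, while for ENSG00000168214 2 washed normoxia libraries reach into the range of the unwashed hypoxia ones.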

How the data were processed

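RNA of splenocyte cultures was sequenced as QuantSeq 3′ libraries with single reads. The authors used bbduk for trimming, STAR 2.7.10b for alignment to GRCh38, and featureCounts (Rsubread 2.0.3) for counting, as the series text states. The deposited values are raw counts per ID, and 100% were whole numbers. Whether the kit's molecular identifiers entered the counting is not given in the sources used here, so a count may include PCR copies. GRCh38 is human and the samples are mouse, so transcripts that differ between the species are undercounted. None (0) of the 60708 IDs occurs in the mouse gene table, and the gene lists, marker checks and mitochondrial share that had been planned were therefore not run. Of 22657 IDs with a count, 5193 were kept by filterByExpr (minimum count 10, group as the design) and held 99.0% to 99.4% of the counts of the 12 libraries.

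Counts were analysed with R 4.3.3 and edgeR 4.0.16. After TMM scaling, all 37 libraries in their 13 groups entered 1 quasi-likelihood fit with group means, and each contrast was given an F test whose p-values were adjusted by Benjamini-Hochberg over all tested IDs. Standard errors came from the F statistic, and log2 CPM values used a prior count of 2. Alternatives were RLE scaling, no filter, DESeq2 1.42.0, only the groups compared, a replicate block, robust dispersion and libraries left out. Groups were taken from the treatment labels and replicate numbers from the titles. The series text speaks of independent repeats, but the labels tie no library to an animal or culture, so the p-values measure only the spread between these samples.

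The comparison, the members and the rules were chosen with earlier results of these data known. Named IDs were, in the main contrast, the called ID with the largest fold change per direction and the one with the smallest p among IDs without overlap, both with a mean log2 CPM of at least 4 and the same sign at both SPP1 levels. Elsewhere they were the 2 smallest p per direction. Since the IDs have no names, at most 2 per direction are given. Merging the SPP1 levels, leaving out the 4 libraries lowest on the second principal component and following the 116 IDs into other libraries were chosen after the data were seen.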

Additional observations from a re-analysis of the deposited data

Results flagged for a closer look

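The wash effect differed between oxygen levels for 9 IDs by a direct test of the difference in edgeR. The log2 difference between normoxia and hypoxia was 4.35 for ENSG00000197956 and 2.19 for ENSG00000168214. For the former it stayed past the threshold in each alternative and without any 1 library. For the latter it was lost in 2 of 8 alternatives, those without washed normoxia SPP1 replicates 1 and 2. Groups of 3 libraries were not tested for single values far from the rest.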

How the results depend on the processing

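Called IDs between the arms (67) numbered 73 with RLE scaling, 191 with no filter, 239 with DESeq2, 363 in the 12-library fit, 62 with a replicate block and 58 with robust dispersion. They numbered 0 without washed SPP1 replicates 1 and 2, 1 with SPP1 levels merged in addition, 26 without the 4 libraries lowest on the second principal component and 83 with SPP1 levels merged only. The share of higher calls was 65.7% in the main test, 55.0% with no filter, 53.1% with DESeq2 and 56.5% in the 12-library fit. Leaving out 1 library gave 24 to 541. Without SPP1 (0) the counts that moved were 15 with no filter, 116 in the 6-library fit and 12 without the 4 libraries, and leaving out 1 library gave 0 to 0. With SPP1 (65) they were 208 with no filter, 263 with DESeq2, 0 in the 6-library fit, 38 with robust dispersion, 0 without the 2 libraries and 1 without the 4, and 0 to 790 with 1 library left out. The difference between SPP1 levels (0) gave 6 with no filter and 0 in the other 7 alternatives and with any 1 library left out. The difference between oxygen levels (9) gave 52 with no filter, 32 with DESeq2, 15 in the 24-library fit, 5 with robust dispersion, 5 without the 2 libraries, 2 without the 4 and 4 to 25 with 1 library left out. No named ID reversed, and ENSG00000172500 was below the filter in the 6-library fit. The causes were not tested.

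Deviations of same-numbered libraries of different groups correlated with r from −0.18 to 0.18 (18 pairs, 1 over 0.1). Differently numbered libraries had r from −0.18 to 0.18 as well (36 pairs, 4 over 0.1). Such correlations cannot exclude pairs, as each deviation is taken from the mean of only 3 libraries. The numbers were not taken as pairs in the main fit because the titles share numbers only. The replicate block gave 62, 0, 50, 0 and 10 called IDs in the order above. At these library totals, IDs of a few CPM carry wide counting error.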
